A study of Mus musculus with 10 samples.

Results

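The 28 genes described here encode enzymes of cholesterol synthesis and the proteins that sense, take up and move sterols in mouse cells. They were taken as a list of named genes from the deposited count table, which holds 24470 gene entries, and all 28 were found there and passed the filter on low counts, as did 13941 entries in total. Synthesis steps account for 20 of them and sensing, uptake and transport for 8. Cholesterol is built from acetyl-CoA by way of mevalonate, farnesyl diphosphate, squalene and lanosterol. When sterols in the endoplasmic reticulum run low, the escort protein Scap carries the transcription factor precursor SREBP2, the product of Srebf2, to the Golgi, where proteases free its active part, and the freed factor raises transcription of synthesis and uptake genes. When sterols are plentiful, Insig1 and Insig2 hold Scap and its cargo back. In the fetal testis, Leydig cells turn cholesterol into androgens.

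The samples were testes of C57BL/6 mouse embryos at E12.5, and the comparison asks how their RNA differs when breakdown of glycogen is inhibited. From each of 5 embryos, named M1 to M5, 1 gonad was cultured with its mesonephros for 48 h in medium holding 75 µM of the glycogen phosphorylase inhibitor CP 316819 (GPI), and the gonad of the other side in medium holding the vehicle, DMSO. Each gonad was then separated by hand from the mesonephros and gave 1 library, so that there were 5 libraries per treatment and the mouse was a block in the test. The libraries held 10203679 to 15635322 counts. Counts were scaled to a common effective library size, and these normalized read counts are the unit of every level below unless another is named. Values in single gonads are given in the order M1 to M5. RNA came from whole gonads, so fewer cells of a type and less RNA per cell cannot be told apart.

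The GPI library of mouse M1 stood apart from the rest. Its chi-square per degree of freedom against the other GPI libraries ran from 21.7 to 27.8, whereas pairs among the GPI libraries of M2 to M5 gave 7.48 to 11.0 and pairs of vehicle libraries 6.42 to 21.2. The vehicle library of M1 gave 7.47 to 18.4 against the other vehicle libraries, within the range of the remaining vehicle pairs. The change in each of the 28 genes is therefore given with all 5 mice and without M1.

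Treatments were compared gene by gene with the quasi-likelihood test of edgeR, adjusted after Benjamini-Hochberg across every gene tested, and a gene was called where the adjusted p was below 0.05. Of the 28 genes, 16 were upregulated, against 11.1% of all tested genes, and 2 were downregulated, against 11.9%. The remaining 10 were not called. The median log2 fold change of the 28 was 0.68 (0.02 over all tested genes). Synthesis genes gave 13 upregulated, 1 downregulated and 6 not called, with a median log2 fold change of 0.70. Sensing and uptake genes gave 3 upregulated, 1 downregulated and 4 not called, with a median of 0.30. Without M1, 20 of the 28 were upregulated, against 10% of all tested genes, and 1 was downregulated, against 12.1%. The synthesis median then rose to 0.96, with 16 upregulated and 4 not called, and the sensing and uptake median was 0.33.

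**Figure D1:**
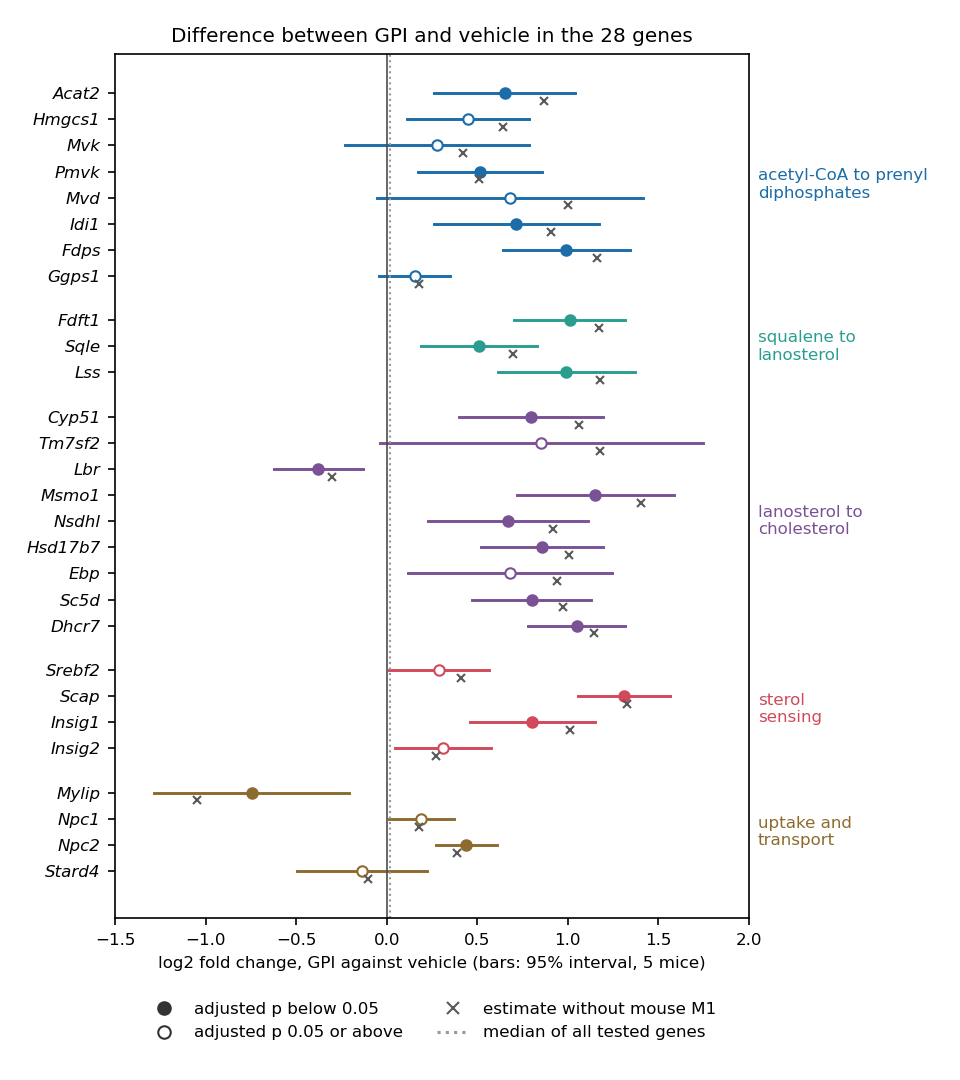
Log2 fold change of GPI against vehicle (horizontal axis) for each of the 28 genes, grouped by role, with 95% intervals over 5 mice; filled circles have an adjusted p below 0.05, open circles do not, crosses are estimates without mouse M1 and the dotted line is the median of all tested genes (0.02). Nearly all synthesis genes lie to the right of the line, Lbr and Mylip lie to the left with intervals below 0, and the crosses of most synthesis genes lie further right than their circles.

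The synthesis genes moved together in 4 of the 5 mice. Summed over the 20 genes, their level was 8761, 9491, 9022, 8521 and 9744 normalized counts with vehicle and 7852, 15199, 14823, 19127 and 17650 with GPI. The vehicle sums lay close together, the GPI sums of M2 to M5 were all above them, and the GPI sum of M1 was below every vehicle sum. Taken gene by gene, the ratio of the GPI to the vehicle gonad of the same mouse was above 1 for 19 synthesis genes in M2, 19 in M3, 18 in M4 and 19 in M5, but for 7 in M1. The median log2 ratio of the 20 genes was -0.30 in M1, 0.66 in M2, 0.63 in M3, 1.31 in M4 and 0.92 in M5, beside 0.01 to 0.02 over all tested genes in each mouse. The log2 ratio was above 0 in 5 of 5 mice for 7 synthesis genes and 3 sensing and uptake genes, against 15.4% of tested genes. In the 4 mice M2 to M5 it was above 0 for 18 and 5 of them, against 20.2% of tested genes.

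Complete separation of the groups was less frequent with M1 included. All 5 GPI values exceeded all 5 vehicle values in 2 of the 28 genes, Scap and Npc2, against 7.07% of tested genes, and all 5 were below in 1, Lbr, against 9.05%. Among M2 to M5, all 4 GPI values exceeded all 4 vehicle values in 19 of the 28 genes, 14 of them synthesis genes, against 12.3% of tested genes. Of the 8 sensing and uptake genes, 5, 5, 6, 7 and 6 were higher with GPI in M1 to M5, with median log2 ratios of 0.26, 0.24, 0.38, 0.59 and 0.16.

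**Figure D2:**
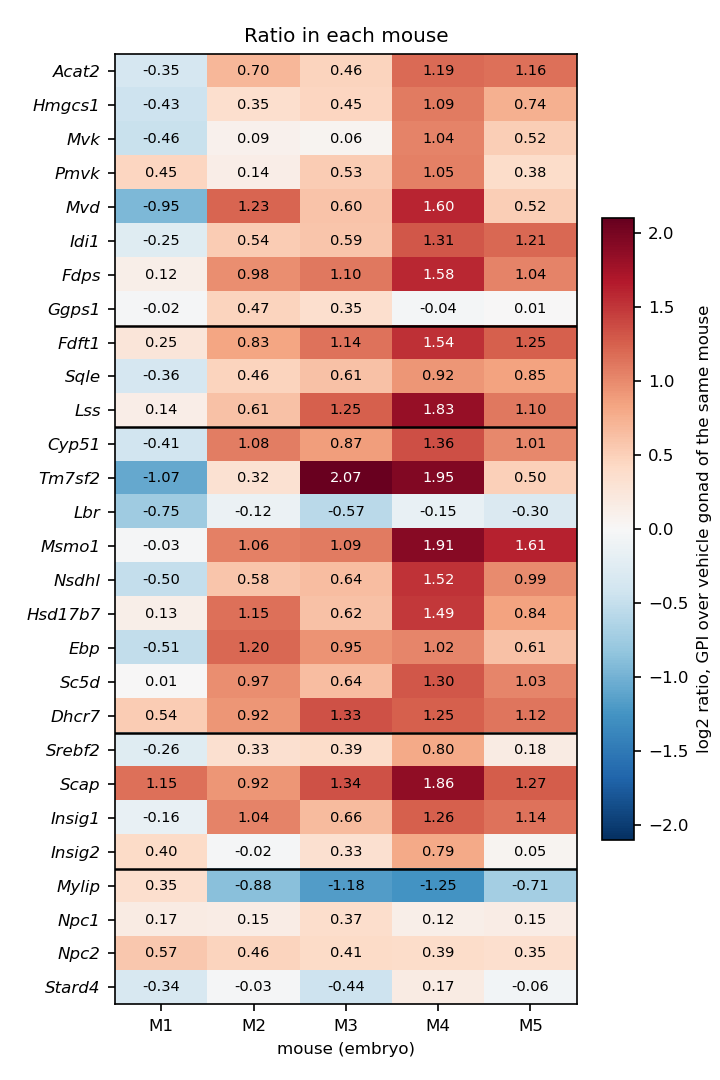
Log2 ratio of the GPI gonad over the vehicle gonad of the same mouse, with 1 row per gene in the order of the pathway and 1 column per mouse; red is higher with GPI, blue lower, and black lines divide the role groups. Columns M2 to M5 are red for nearly every synthesis gene except Lbr, whereas column M1 is mostly blue among synthesis genes, with red cells for Scap (1.15), Npc2 (0.57) and Dhcr7 (0.54).

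Promoters were compared because the synthesis genes moved together. RefSeq promoter windows, from 250 bases before to 50 bases after a transcription start, were matched by symbol for 23 of the 28 genes, not for Sqle, Fdps, Fdft1, Stard4 or Npc1, and gave 29 windows. Each was searched on both strands for a sterol regulatory element spelled TCACNCCAC, the kind of site SREBP2 binds, and for the CCAAT box, spelled CCAAT, the site of the factor NF-Y. The CCAAT letters were found in 21 of the 23 genes (91.3%) and in 16 of the 17 synthesis genes matched, whereas 41.1% of all 27025 genes with a window and 43.0% of the 10998 tested genes with a window held them. The stricter letters TCACNCCAC were found in 1 of the 23 genes, Hmgcs1 (1.44% of all genes with a window). A match is a description of the letters, not of binding, and no match says only that these letters are not in this window.

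The 250 bases upstream of 4 genes are printed 5′ to 3′ on the strand of the gene, in RefSeq coordinates of GRCm38.p6, with matched letters in capitals (ATTGG is CCAAT on the other strand). Hmgcs1, the gene with both motifs, has its window at chr13:119690101-119690350 on the plus strand, with the sterol element TCACCCCAC at position -137 from the start and no shared bases between the motifs. Msmo1, the synthesis gene with the largest log2 fold change, has CCAAT at -160, -96 and -55 in chr8:64733579-64733828 on the minus strand. Lbr, the synthesis gene that fell, has CCAAT at -68 and -28 in chr1:181842402-181842651 on the minus strand. Scap, the gene with the largest log2 fold change of the 28 with all mice, has neither motif in chr9:110333038-110333287 on the plus strand, the first of its 2 windows.
Hmgcs1: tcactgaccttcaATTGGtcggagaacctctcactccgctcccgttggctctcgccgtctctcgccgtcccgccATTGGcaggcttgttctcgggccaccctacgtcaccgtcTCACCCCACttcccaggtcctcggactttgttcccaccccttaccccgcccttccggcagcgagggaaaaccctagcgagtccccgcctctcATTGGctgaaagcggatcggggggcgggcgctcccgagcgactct
Msmo1: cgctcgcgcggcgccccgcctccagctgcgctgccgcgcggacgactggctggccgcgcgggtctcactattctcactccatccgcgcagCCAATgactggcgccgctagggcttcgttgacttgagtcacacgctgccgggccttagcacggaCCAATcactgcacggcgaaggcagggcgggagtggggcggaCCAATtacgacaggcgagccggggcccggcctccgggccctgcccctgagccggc
Lbr: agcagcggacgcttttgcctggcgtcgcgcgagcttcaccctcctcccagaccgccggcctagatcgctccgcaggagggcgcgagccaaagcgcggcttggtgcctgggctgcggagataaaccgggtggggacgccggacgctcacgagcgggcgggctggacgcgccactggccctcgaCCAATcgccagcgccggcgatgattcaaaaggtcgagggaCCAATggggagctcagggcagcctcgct
Scap: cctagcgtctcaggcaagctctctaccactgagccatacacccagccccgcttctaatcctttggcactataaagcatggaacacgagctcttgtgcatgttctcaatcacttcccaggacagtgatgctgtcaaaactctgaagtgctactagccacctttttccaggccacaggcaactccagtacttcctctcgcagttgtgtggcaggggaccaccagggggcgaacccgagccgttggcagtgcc

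**Figure D3:**
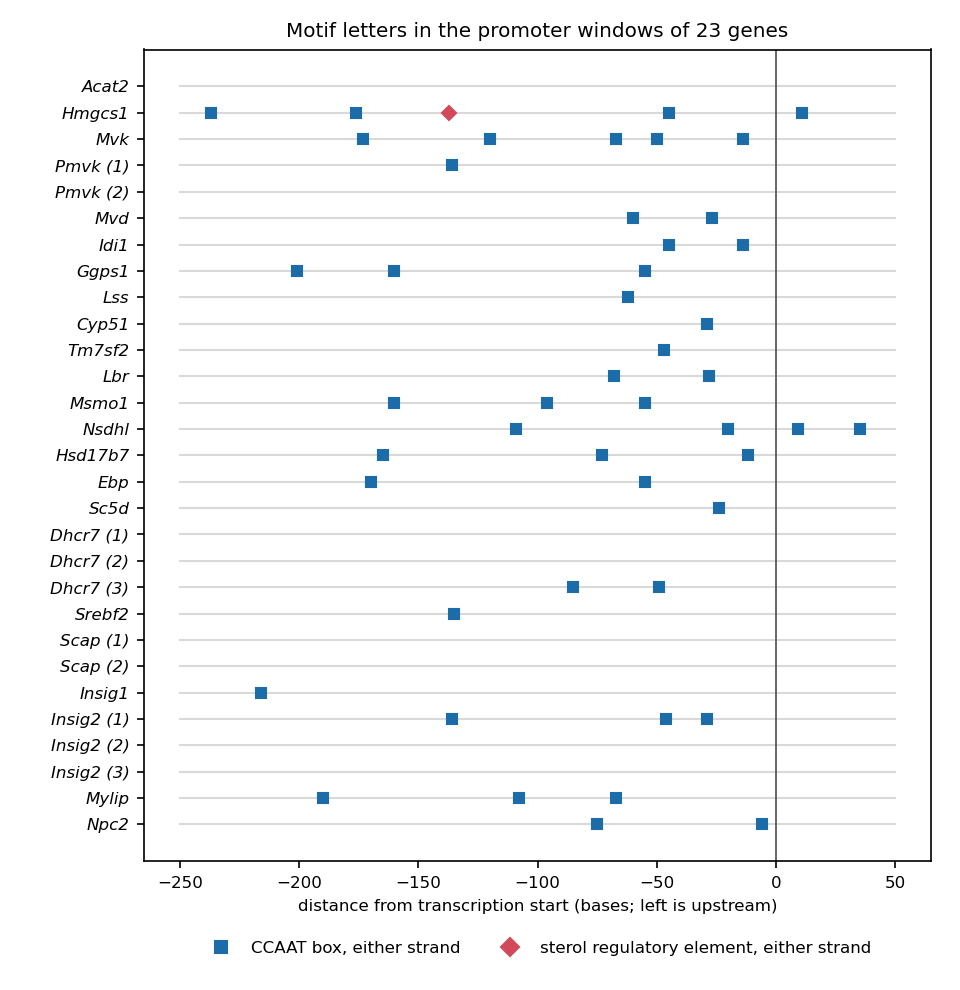
Distance of each motif match from the transcription start (horizontal axis, in bases, negative upstream) in 29 promoter windows of 23 genes, with 1 line per window and the window number in brackets where a gene has more than 1; squares are CCAAT and the diamond is the sterol regulatory element, both on either strand. Squares stand in 21 of the 23 genes, the diamond stands in Hmgcs1 at -137, and Acat2 and Scap have no match.

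The first group of 8 genes leads from acetyl-CoA to farnesyl and geranylgeranyl diphosphate. In this group, 4 genes were upregulated and 4 were not called (median log2 fold change 0.58). Without M1, 5 were upregulated and the median was 0.76. By length, Hmgcs1 and Ggps1 had the highest levels of the 28 genes with vehicle, 304 and 286 normalized counts per kilobase of exon.

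Fdps encodes farnesyl diphosphate synthase, which makes the last intermediate shared by sterols and other isoprenoids, and lies at chr3:89093588-89101967 (mm10, minus strand). Its level was 147, 202, 204, 179 and 255 normalized counts with vehicle and 160, 400, 440, 539 and 526 with GPI. Gonads M2 to M5 with GPI were all above the highest vehicle value, and the GPI gonad of M1 lay among the vehicle gonads. Fdps rose 1.99-fold (log2 fold change 0.99 ± 0.16, SE, higher in 5 of 5 mice, edgeR adjusted p = 0.000539), and without M1 by 2.24-fold (edgeR adjusted p = 1.27e-05).

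Acat2 encodes the thiolase that joins acetyl-CoA units at the entry of the pathway (chr17:12943042-12960725, minus strand). Vehicle gonads held 369, 358, 350, 272 and 289 normalized counts of Acat2, and GPI gonads 289, 585, 482, 625 and 649. The GPI value of M1 was again inside the vehicle range and the other GPI values were above it. Acat2 was upregulated 1.57-fold (log2 fold change 0.65 ± 0.18, SE, higher in 4 of 5 mice, edgeR adjusted p = 0.0188) and 1.83-fold without M1 (edgeR adjusted p = 0.000224). The call was lost without M2, M4 or M5 (edgeR adjusted p of 0.0620, 0.0979 and 0.0941; 0.000224 to 0.0979 over all alternatives). A neighbouring near-identical gene, Acat3, had 10 to 33 counts per library, and reads shared between the copies make the counts of Acat2 less certain.

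Idi1, which interconverts the isoprene building blocks of the pathway, and Pmvk, the phosphomevalonate kinase, were the other genes of this group that rose. Idi1 went from a mean of 96.3 ± 18.0 (SD, n = 5) to 164 ± 55.9 normalized counts, a log2 fold change of 0.71 ± 0.21 (SE; edgeR adjusted p = 0.0253) that became 0.91 without M1. Its call was lost without M2, M3, M4 or M5, with edgeR adjusted p between 0.0507 and 0.129. Pmvk went from 124 ± 24.7 to 177 ± 33.2 normalized counts (SD, n = 5) and was higher with GPI in 5 of 5 mice, M1 included. Its log2 fold change was 0.51 ± 0.16 (SE; edgeR adjusted p = 0.0308), the same 0.51 without M1 (edgeR adjusted p = 0.0526), and the call was also lost without M3, M4 or M5 and with total counts as scaling (edgeR adjusted p up to 0.145).

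Hmgcs1, the HMG-CoA synthase, lay near the threshold with all mice and passed it without M1. Vehicle gonads held 1343, 1669, 1314, 1257 and 1409 normalized counts of Hmgcs1, and GPI gonads 994, 2127, 1799, 2680 and 2357. The M1 gonad with GPI was the lowest of the 10, while the other GPI gonads were above all vehicle gonads. The log2 fold change was 0.45 (95% interval 0.11 to 0.78, edgeR adjusted p = 0.0540), and 0.64 without M1 (edgeR adjusted p = 0.000537). Of 12 alternatives 3 called it: the fit without M1, limma-voom (adjusted p = 0.0287) and edgeR without the low-count filter (edgeR adjusted p = 0.00508). The other 9 did not, among them DESeq2 (adjusted p = 0.214), total counts as scaling (edgeR adjusted p = 0.0794), no replicate block (edgeR adjusted p = 0.0609) and the fits without M2, M3, M4 or M5 (edgeR adjusted p from 0.102 to 0.240). Mvd, the decarboxylase that forms isopentenyl diphosphate, had a log2 fold change of 0.68 (95% interval -0.06 to 1.42, edgeR adjusted p = 0.182) at a low mean of 34.3 normalized counts with vehicle, and was 2.01-fold higher without M1 (edgeR adjusted p = 0.0222).

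Mvk and Ggps1 were not called with or without M1. Mevalonate kinase, the product of Mvk, had a log2 fold change of 0.28 (95% interval -0.23 to 0.78) and 0.42 without M1. Ggps1, which draws farnesyl diphosphate towards geranylgeranyl groups and away from sterols, had 0.15 (95% interval -0.04 to 0.35) and 0.18 without M1. The upper bound of Ggps1, 0.35, lies below the lower bound of Fdps, 0.64, and the difference between these genes was not tested.

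The second group of 3 genes makes squalene and closes it into lanosterol, and all 3 were upregulated with all mice and without M1. Fdft1, the squalene synthase, catalyses the first step given over to sterols (chr14:63145150-63179578, minus strand). Its level was 627, 847, 746, 702 and 776 normalized counts with vehicle and 744, 1503, 1645, 2040 and 1844 with GPI. In M1 the GPI value stayed within the vehicle range, and in M2 to M5 every GPI value was above it. Fdft1 rose 2.01-fold (log2 fold change 1.01 ± 0.14, SE, higher in 5 of 5 mice, edgeR adjusted p = 0.000145) and 2.25-fold without M1 (edgeR adjusted p = 1.84e-06). The gene overlaps Ctsb, with a mean of 1258 counts per library, on the other strand over 774 bases, and without strand the reads in that stretch cannot be told apart.

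Lss encodes lanosterol synthase, which folds the oxidized squalene into the sterol ring system (chr10:76531605-76557139, plus strand). Its level was 643, 1004, 622, 559 and 808 normalized counts with vehicle and 711, 1532, 1481, 1994 and 1729 with GPI. The pattern was that of Fdft1, with M1 inside the vehicle range and the other 4 GPI gonads above it. Lss rose 1.99-fold (log2 fold change 0.99 ± 0.18, SE, higher in 5 of 5 mice, edgeR adjusted p = 0.000933) and 2.26-fold without M1 (edgeR adjusted p = 2.97e-05). On the other strand, Lss overlaps 4930483K19Rik over 11269 bases, an entry with a mean of 2.0 counts. Sqle, the squalene epoxidase between Fdft1 and Lss, had a mean of 608 ± 44.3 normalized counts with vehicle and 900 ± 276 with GPI (SD, n = 5). Its rise was smaller, a log2 fold change of 0.51 ± 0.15 (SE; edgeR adjusted p = 0.0233) and 0.70 without M1 (edgeR adjusted p = 0.000144), and its call was lost without M2, M3, M4 or M5 (edgeR adjusted p between 0.0588 and 0.117).

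The third group of 9 genes turns lanosterol into cholesterol by demethylation, reduction and shifts of double bonds. In it, 6 genes were upregulated, 1 was downregulated and 2 were not called, with a median log2 fold change of 0.80. Without M1, 8 were upregulated and 1 was not called, with a median of 1.01. Per kilobase of exon, levels with vehicle ran from 6.69 normalized counts for Tm7sf2 to 275 for Cyp51.

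Dhcr7, whose product reduces the last double bond on the route through dehydrocholesterol, had the smallest p of the 20 synthesis genes (chr7:143823167-143848410, plus strand). Its level was 177, 226, 181, 244 and 266 normalized counts with vehicle and 259, 430, 459, 582 and 582 with GPI. Unlike most synthesis genes it was also higher with GPI within M1, whose GPI value nevertheless lay inside the vehicle range. Dhcr7 rose 2.07-fold (log2 fold change 1.05 ± 0.13, SE, higher in 5 of 5 mice, edgeR adjusted p = 3.62e-05) and 2.21-fold without M1 (edgeR adjusted p = 5.94e-06).

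Msmo1 encodes the sterol methyl oxidase that starts removal of the methyl groups of lanosterol's first ring (chr8:64718145-64733578, minus strand; upstream sequence printed above). Vehicle gonads held 453, 567, 532, 410 and 466 normalized counts of Msmo1, and GPI gonads 442, 1187, 1132, 1553 and 1426. The 2 gonads of M1 were nearly equal, and in the other mice each GPI value was above every vehicle value. Msmo1 rose 2.22-fold (log2 fold change 1.15 ± 0.20, SE, higher in 4 of 5 mice, edgeR adjusted p = 0.000815) and 2.65-fold without M1 (edgeR adjusted p = 2.25e-06).

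Cyp51, Hsd17b7, Sc5d and Nsdhl rose as well. Lanosterol demethylase, the product of Cyp51, went from a mean of 1213 ± 105 to 2236 ± 812 normalized counts (SD, n = 5), a log2 fold change of 0.80 (edgeR adjusted p = 0.00605) that became 1.06 without M1. Hsd17b7 and Nsdhl act after Msmo1 in removing the methyl groups. Hsd17b7 had a log2 fold change of 0.86 (edgeR adjusted p = 0.00118; 1.01 without M1), with the GPI gonad above the vehicle gonad in each of the 5 mice. Nsdhl had 0.67 (0.92 without M1; edgeR adjusted p = 0.0303), and its call was lost with DESeq2 (adjusted p = 0.138) and without M2, M3, M4 or M5 (edgeR adjusted p from 0.0726 to 0.147). Sc5d, a sterol desaturase near the end of the pathway, had 0.80 (0.97 without M1; edgeR adjusted p = 0.00156).

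Tm7sf2 and Ebp were called without M1 and not with it. Ebp, the isomerase that moves a double bond of the sterol ring, had a log2 fold change of 0.68 (95% interval 0.12 to 1.25, edgeR adjusted p = 0.0792) and 0.94 without M1 (edgeR adjusted p = 0.00890). Tm7sf2, a sterol reductase that acts after Cyp51, was the least abundant of the 28 genes per length, with 9 to 86 normalized counts per gonad. Its log2 fold change was 0.85 (95% interval -0.04 to 1.74, edgeR adjusted p = 0.166) and 1.18 without M1 (edgeR adjusted p = 0.0282). It overlaps Vps51 on the same strand over 9 bases.

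Lbr was the synthesis gene that moved the other way (chr1:181815315-181842401, minus strand). Its product catalyses the same reduction as Tm7sf2 and is also a receptor for lamin B in the inner nuclear membrane. Its level was 452, 397, 533, 425 and 482 normalized counts with vehicle and 267, 365, 358, 383 and 391 with GPI. Every GPI gonad was below every vehicle gonad, with M1 the lowest of all. Lbr fell 1.30-fold (log2 fold change -0.38 ± 0.11, SE, lower in 5 of 5 mice, edgeR adjusted p = 0.0280). Without M1 the log2 fold change was -0.30 (edgeR adjusted p = 0.0744), and without M3 or M5 the call was lost too (edgeR adjusted p of 0.106 and 0.0581). With vehicle, Lbr had 96.2 normalized counts per kilobase of exon against 6.69 for Tm7sf2, and with GPI 74.1 against 12.8.

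**Figure D4:**
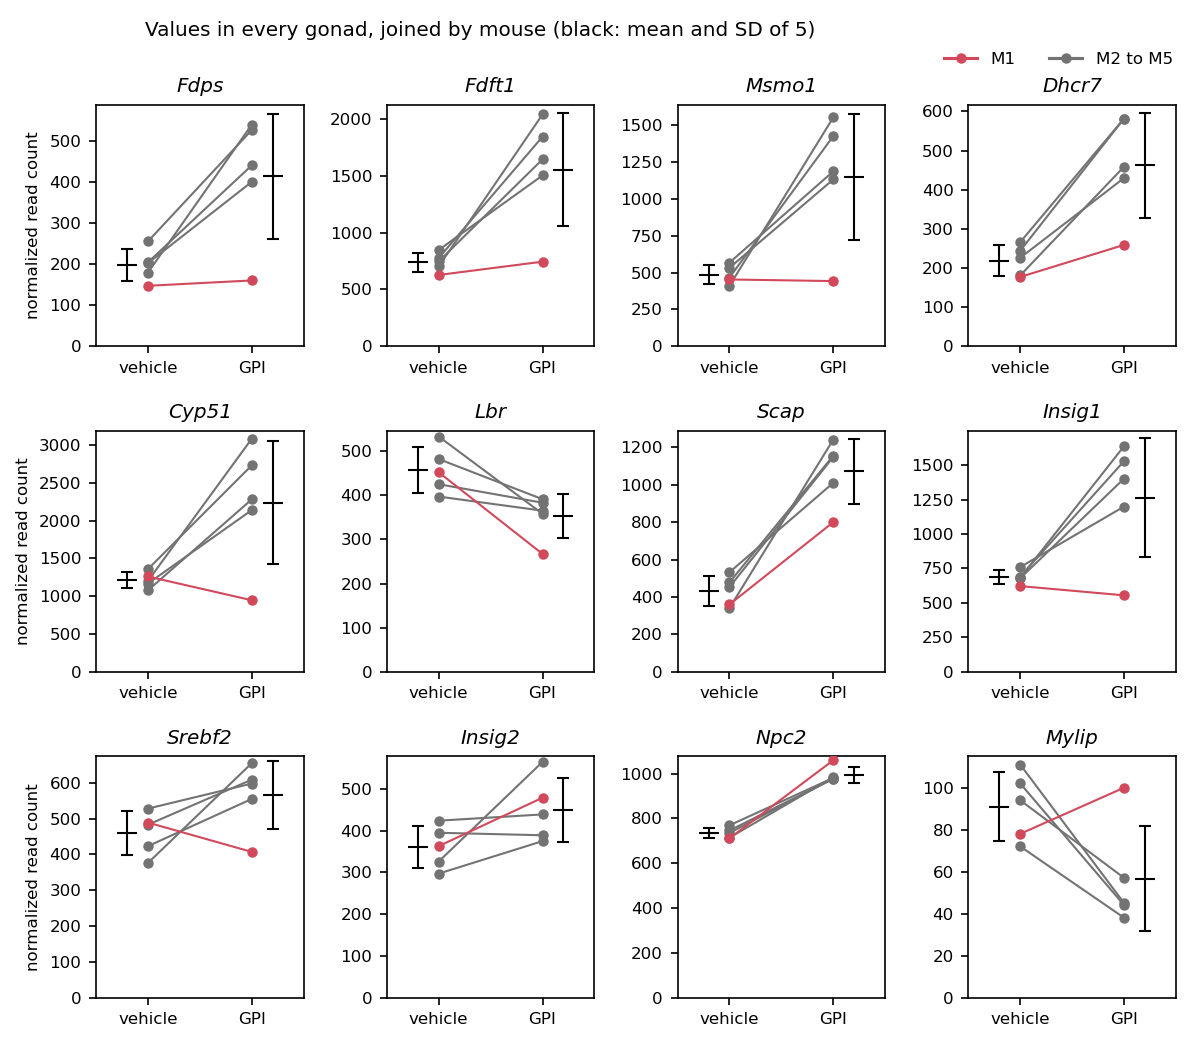
Normalized read count (vertical axis, from 0) in every gonad for 12 of the genes, with lines joining the vehicle and GPI gonads of a mouse, M1 in red and M2 to M5 in grey, and black bars for the mean and SD of 5 gonads. Grey lines of Fdps, Fdft1, Msmo1, Dhcr7, Cyp51 and Insig1 end above all vehicle points while the red line stays near them; Scap and Npc2 rise in all 5 mice, Lbr falls in all 5, and the red line of Mylip rises while the grey lines fall.

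The 4 sensing genes decide when SREBP2 is released. Of these, Scap and Insig1 were upregulated and Srebf2 and Insig2 were not called, with a median log2 fold change of 0.56 and 0.71 without M1. Scap encodes the sterol-sensing escort of SREBP precursors (chr9:110333288-110384949, plus strand). Its level was 360, 532, 453, 341 and 478 normalized counts with vehicle and 800, 1010, 1148, 1241 and 1155 with GPI. Every GPI gonad, that of M1 included, was above every vehicle gonad. Scap rose 2.48-fold, with a log2 fold change of 1.31 ± 0.12 (SE, higher in 5 of 5 mice, edgeR adjusted p = 2.92e-06) and of 1.33 without M1 (edgeR adjusted p = 2.96e-06). In M1 alone its log2 ratio was 1.15, beside a median of -0.30 for the 20 synthesis genes in that mouse.

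Insig1 encodes a membrane protein that retains Scap when sterols are plentiful and is itself a known target of SREBP (chr5:28071412-28078662, plus strand). Its level was 622, 679, 760, 682 and 691 normalized counts with vehicle and 555, 1402, 1199, 1637 and 1529 with GPI. The GPI gonad of M1 was the lowest of the 10, as for 9 of the 20 synthesis genes, and the other GPI gonads were all above the vehicle gonads. Insig1 rose 1.75-fold (log2 fold change 0.80 ± 0.16, SE, higher in 4 of 5 mice, edgeR adjusted p = 0.00231) and 2.02-fold without M1 (edgeR adjusted p = 5.31e-06).

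Insig2 encodes a related protein that also retains Scap (chr1:121304353-121332589, minus strand). Its level was 363, 395, 297, 326 and 424 normalized counts with vehicle and 479, 389, 375, 565 and 439 with GPI. The groups overlapped, and M1 was among the higher GPI gonads. The log2 fold change was 0.31 (95% interval 0.05 to 0.57, edgeR adjusted p = 0.0878), and 0.27 without M1 (edgeR adjusted p = 0.189). Without M2 it passed the threshold at 0.39 (edgeR adjusted p = 0.0471).

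Srebf2 encodes SREBP2 itself (chr15:82147269-82204960, plus strand, with Mir33 inside it on the same strand), and its RNA level does not show how much of the protein was processed. Vehicle gonads held 489, 483, 423, 376 and 528 normalized counts of Srebf2, and GPI gonads 407, 609, 555, 655 and 598. The GPI gonad of M1 was inside the vehicle range and the other GPI gonads were just above it. The log2 fold change was 0.29 (95% interval 0.01 to 0.57, edgeR adjusted p = 0.126), and 0.41 without M1 (edgeR adjusted p = 0.0197).

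The 4 uptake and transport genes showed no common direction, with a median log2 fold change of 0.03 and of 0.04 without M1. Npc2 encodes the soluble protein that hands cholesterol released in lysosomes to the membrane protein Npc1 (chr12:84754559-84773112, minus strand). Its level was 711, 714, 735, 746 and 769 normalized counts with vehicle and 1060, 984, 978, 977 and 981 with GPI. Spread within each treatment was small, the groups did not overlap, and M1 had the highest GPI value. Npc2 rose 1.35-fold (log2 fold change 0.44 ± 0.08, SE, higher in 5 of 5 mice, edgeR adjusted p = 0.000971), and 1.31-fold without M1 (edgeR adjusted p = 0.00484).

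Mylip encodes a ubiquitin ligase that sends lipoprotein receptors to degradation and is known as a target of the sterol-sensing receptor LXR (chr13:45389742-45411940, plus strand). Its level was 78, 72, 102, 111 and 94 normalized counts with vehicle and 100, 38, 44, 45 and 57 with GPI. The GPI gonads of M2 to M5 were below every vehicle gonad, and the GPI gonad of M1 was among the highest vehicle values. Mylip fell 1.68-fold (log2 fold change -0.75 ± 0.25, SE, lower in 4 of 5 mice, edgeR adjusted p = 0.0457), and without M1 its log2 fold change was -1.05 (edgeR adjusted p = 0.00413). The call was lost with limma-voom (adjusted p = 0.0543), without the mouse as replicate block (edgeR adjusted p = 0.0609), and without M2, M3, M4 or M5 (edgeR adjusted p from 0.103 to 0.178).

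Npc1 and Stard4 were not called with or without M1. Npc1 had a log2 fold change of 0.19 (95% interval 0.01 to 0.37) and was higher in 5 of 5 mice, with 0.18 without M1. It overlaps Rmc1 on the other strand over 281 bases. Stard4, a carrier of sterols through the cytosol, had -0.14 (95% interval -0.49 to 0.22), and -0.10 without M1.

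Other genes of sterol metabolism were looked at in 5 lists. Of 9 genes for processing and turnover of SREBP, 1 was upregulated and 8 were not called (median log2 fold change 0.10). It was Rnf145, a ubiquitin ligase, at 0.36 (edgeR adjusted p = 0.0259), while the proteases that free SREBP had 0.19 (Mbtps2) and 0.08 (Mbtps1). Of 10 genes that use isoprenoids for other products, 0 were called in either direction by edgeR's quasi-likelihood test and 1, Nus1, lay near the threshold (edgeR adjusted p = 0.0545). Nus1 was called lower by DESeq2 (adjusted p = 0.0427), and with edgeR without the replicate block, with the size factors of DESeq2, with total counts as scaling and with the filter of 10 counts (edgeR adjusted p from 0.0141 to 0.0458). Their log2 fold changes ran from -0.31 for Fntb to 0.14 for Pggt1b, with Nus1, the most abundant, at -0.21. Of 5 genes of LXR, efflux and storage, 4 were tested and 1 was upregulated, the exporter Abca1 (log2 fold change 0.47, higher in 5 of 5 mice, edgeR adjusted p = 0.000436), while Abcg1 had -0.53 (edgeR adjusted p = 0.0598) and Nr1h2 -0.08. Abcg1 was called lower with total counts as scaling, without the low-count filter and without M4 (edgeR adjusted p from 0.0195 to 0.0431). Abca1 was also higher in M1, with a log2 ratio of 0.63. Of 9 sterol trafficking genes, Gramd1b rose (1.13, edgeR adjusted p = 0.000172), Osbp2 fell (-2.17, edgeR adjusted p = 0.00158) and 7 were not called, among them Lipa at -0.12 and Osbp, the most abundant, at 0.06. Of 5 genes of acetyl-CoA supply and use, Acly (0.60, edgeR adjusted p = 0.00103) and Mdh1 (0.38, edgeR adjusted p = 0.0143) were upregulated and 3 were not called, among them Acss2 at 0.45, which limma-voom called (adjusted p = 0.0482). The call of Mdh1 was lost without M4 or M5 (edgeR adjusted p of 0.0851 and 0.0693). The call of Rnf145 was lost without M1, M2 or M5 and with total counts as scaling (edgeR adjusted p from 0.0590 to 0.114). Without M1, the counts in the other 4 lists were the same.

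Markers of the cell types in the gonad changed in the same libraries, and their part in the results above was not tested. All 5 tested fetal Leydig markers of 6 were upregulated, among them Cyp17a1 (log2 fold change 3.90), Fdx1 (1.41), Cyp11a1 (2.90) and the most abundant, Hsd3b1 (1.75), while Insl3 had 0 to 7 counts in every library and was not tested. Their summed level was 1633, 3027, 4383, 2276 and 5752 normalized counts with vehicle and 10552, 10848, 16781, 19321 and 13884 with GPI. M1 had the lowest Leydig sum of each treatment, 1633 and 10552. In M1 the Leydig sum was 6.46 times as high with GPI as with vehicle, and the sum of the 20 synthesis genes 0.896 times as high. Of 8 Sertoli markers 5 were upregulated, with Sox8 at 1.43, Sox9, the most abundant, at 0.59 and Inhbb at 0.62, and 3 were not called, Amh (0.08), Cldn11 (0.21) and Fgf9 (-0.33, lower in 4 of 5 mice). The Sertoli sum was 2385, 3370, 2449, 2941 and 3194 with vehicle and 3008, 4302, 4301, 5199 and 4107 with GPI, so that M1 had the lowest value of each treatment.

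Markers of other cell types fell. All 7 tested germ cell markers of 8 were downregulated, among them Dppa3 (-5.20), Dazl (-4.62) and Sall4 (-4.89), and their sum, led by Dazl, was 1239, 2427, 1669, 2048 and 804 normalized counts with vehicle and 170, 118, 40, 51 and 169 with GPI. All 7 endothelial markers were downregulated, with Cdh5, the most abundant, at -3.63, Flt1 at -5.18 and Pecam1 at -4.16. Their sum was 7258, 7571, 6809, 7970 and 7015 with vehicle and 788, 948, 649, 520 and 678 with GPI. Of 5 macrophage markers 4 fell, with Csf1r at -2.22, Cx3cr1 at -2.38 and Mrc1, the most abundant, at -0.90, and their sum was 596, 390, 484, 456 and 422 with vehicle and 279, 241, 223, 141 and 138 with GPI. The 3 tested erythroid markers of 4 fell, with Slc4a1, the most abundant, at -4.80 and Klf1 at -1.71, and their sum was 121, 227, 383, 414 and 409 with vehicle and 25, 22, 18, 20 and 19 with GPI.

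The remaining marker lists moved little. Of 6 interstitial markers, Maf (0.49) and Pdgfra (0.33) rose, Tcf21 (-0.30) fell, and the most abundant, Wt1, had -0.14. Tcf21 was not called without M2, M3 or M4 (edgeR adjusted p from 0.0586 to 0.0942), and Wt1 was called with total counts as scaling (edgeR adjusted p = 0.0491). The sum of the 6 was 20847, 22119, 21243, 21050 and 21819 with vehicle and 21109, 22523, 20875, 20860 and 24211 with GPI. Wt1 is also expressed in Sertoli cells, so this sum does not describe interstitial cells alone. With vehicle, Wt1 had a mean of 7040 normalized counts, beside a mean of 21420 for the sum. Of 4 tested pre-granulosa markers of 5, Bmp2 rose (0.61, a call lost without M4 and without the replicate block, with edgeR adjusted p of 0.0539 and 0.0574), while Rspo1, the most abundant, had -0.13 and Foxl2 -0.54, and the sum was 534, 708, 796, 637 and 701 with vehicle and 700, 662, 724, 558 and 727 with GPI. Of the 2 tested mesonephros markers, 0 were called by edgeR's quasi-likelihood test, DESeq2 or limma-voom and 0 had an unadjusted p under 0.05, with Hoxd9, the most abundant, at 0.06 and Pax8 at -0.28, and the sum of the 4 was 971, 414, 1116, 941 and 1067 with vehicle and 764, 897, 830, 812 and 807 with GPI. No listed marker was at 0 in all 10 libraries. Without M1, counts called in the 9 marker lists were the same apart from germ cells, with 8 of 8 downregulated.

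**Figure D5:**
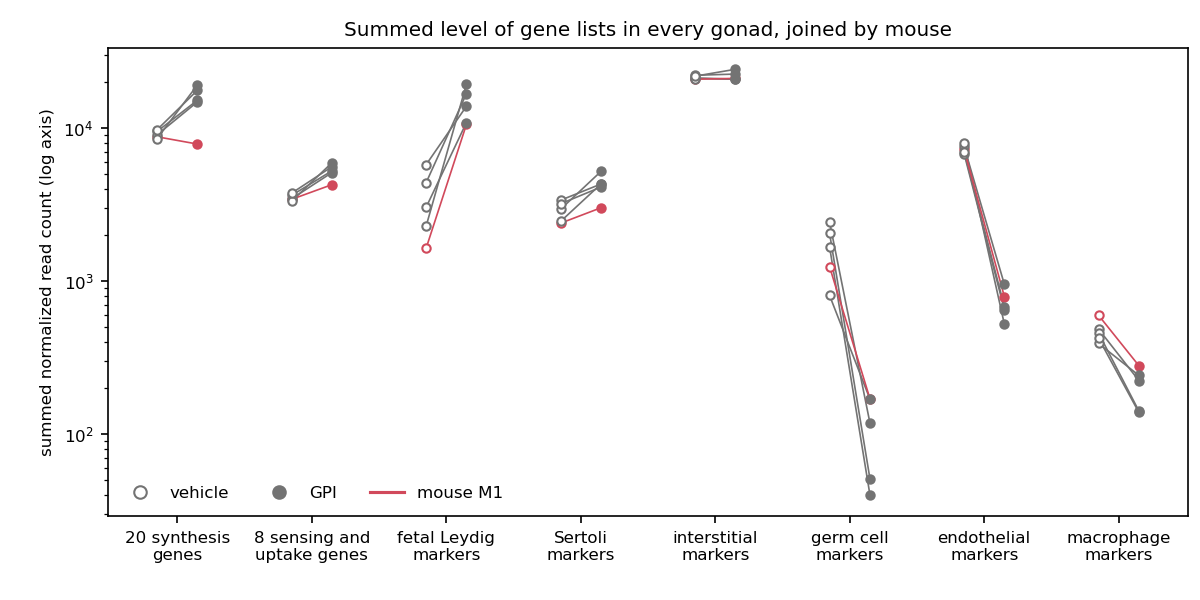
Summed normalized read count (vertical axis, log scale) of the 20 synthesis genes, the 8 sensing and uptake genes and 6 marker lists in every gonad, with open circles for vehicle, filled circles for GPI, lines joining the gonads of a mouse and M1 in red. The synthesis sum of M1 falls from 8761 to 7852 while that of the other mice rises, and in the same mouse the Leydig sum rises from 1633 to 10552 and the germ cell and endothelial sums fall as in the other mice.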

How the data were processed

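RNA of 10 cultured gonads was sequenced in pairs of reads after amplification. Per the submitters' processing notes, the authors mapped reads to mm10 with STAR 2.5, and the deposited counts are whole numbers of read pairs per gene from featureCounts (Subread 1.5.0-p1), made without regard to strand on the RefSeq Curated annotation and not normalized. Reads were amplified without molecular identifiers, and precision therefore rests on the spread between mice.

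The 28 genes and all lists were chosen with earlier results of these data known. The filterByExpr function of edgeR, with a minimum count of 10 and a minimum total of 15, set aside 10529 entries. Counts were scaled by TMM and tested with the quasi-likelihood test of edgeR, Benjamini-Hochberg adjusted (FDR 0.05), in a design of mouse and treatment. The pairing comes from the labels, which name the animal; deviations from the treatment mean correlated at a mean r of 0.06 within a mouse (-0.04 to 0.155) and -0.015 between mice. SE was obtained from the log2 fold change and its F statistic, and ratios in single mice used a prior count of 2. Exon lengths came from GENCODE M21 by Entrez identifier (13304 tested genes, all 28 of those described). The procedure was tested on simulated data. No libraries of a treatment were duplicates.

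Genes named by rule were the 28, with values in every sample for the 2 smallest p of each role group, those called lower, Srebf2, Scap, Insig1 and Insig2, and in each other list the 3 smallest p and the most abundant; Hmgcs1 was given in full as well. A few genes that this rule would name are not reported here. The fit was repeated with limma-voom, with DESeq2, with the size factors of DESeq2 or total counts as scaling, without the replicate block, without a filter, with a filter of 10 counts per library, and without each mouse in turn. R 4.3.3 ran DESeq2 1.42.0, limma 3.58.1 and edgeR 4.0.16, and Python 3.11.15 ran matplotlib 3.10.9, pandas 2.3.3 and numpy 2.4.6 (random seed 1).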

Additional observations from a re-analysis of the deposited data

Results flagged for a closer look

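In groups of 5 gonads, a value was singled out where its gap to the nearest other value exceeded 0.71 of the group's range. Of 58 groups looked at, 2 met this, and chance alone gives about 1 in 20. Lbr in the GPI gonad of M1 was low, at 267 normalized counts, with the other GPI gonads at 358 to 391 (0.736 of the range). Npc2 in the same gonad was high, at 1060, with the others at 977 to 984 (0.917 of the range). No cause of either value was tested.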

How the results depend on the processing

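Over the alternatives, log2 fold changes of the 28 genes kept direction and side of the threshold in 297 cases, lost the call in 30, gained it in 8 and changed sign in 0. Of the 18 genes called, 11 were called in every alternative: Fdps, Fdft1, Lss, Cyp51, Msmo1, Hsd17b7, Sc5d, Dhcr7, Scap, Insig1 and Npc2. Tm7sf2 could not be fitted under the filter of 10 counts per library. Leaving out a mouse moved results most, with fewer samples in each fit: genes called higher ranged from 969 (without M3) to 1430, synthesis genes called higher from 8 (without M4 or M5) to 16 (without M1), synthesis genes called lower from 0 to 1, and sensing and uptake genes called lower from 0 to 1. The last count was also 0 with limma-voom and 0 without the replicate block, where Mylip was lost; the block changed no other call among the 28, and without it 1498 genes were called higher and 1610 lower. With total counts as scaling, 1238 were higher and 1972 lower. The synthesis median ranged from 0.55 to 0.96 and stayed above 0 in every alternative. Direction changed for Nr1h2 (0.016 without M4; -0.205 to 0.016 over mice left out) and Hoxd9 (-0.048 without the replicate block; -0.212 to 0.204 over mice left out), both uncalled; the cause was not tested. Depth limits Tm7sf2, Mvd, Ebp, Mvk and Mylip most, which have the lowest counts of the 28.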
